A study of Mus musculus with 267 samples.

Results

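Basal acetylation of histone H3 at lysine 27 (H3K27ac) was compared between untreated bone marrow-derived macrophages (BMDMs) of NOD/ShiLtJ mice, called NOD, and of C57BL/6J mice, called C57. Each strain has its own table of open chromatin regions, 1000 bp wide, and a NOD and a C57 region were taken as the same place where each was the nearest to the other and their centres lay within 500 bp on the mouse genome mm10. This gave 50521 matched regions out of 68932 in the NOD table and 67742 in the C57 table. The remaining 18411 NOD regions (26.7%) and 17221 C57 regions (25.4%) were found in one table only. The comparison rested on 4 of the 267 libraries of the series, 2 of each strain, made by chromatin immunoprecipitation with sequencing (ChIP-seq) of cells that had received no interleukin-4 (IL-4). Bone marrow came from female mice of 8 to 12 weeks and had been differentiated for 7 days. Neither strain carried a transgene or an induced deletion in these groups. Libraries of the same cells after 24 h of IL-4, and basal libraries of H3K4me2, H3K4me3 and RNA polymerase II (Pol II), were used as further readouts at the matched regions. The study describes its replicates as biological, and p-values here measure the spread between these libraries.

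H3K27ac is placed on nucleosomes beside active enhancers and promoters by the acetyltransferases p300 and CBP, and its level at a regulatory element follows the activity of that element. H3K4me2 marks enhancers and promoters whether or not they are active, H3K4me3 marks promoters, and Pol II is found at transcribed promoters and at active enhancers. In macrophages the set of enhancers is opened by the lineage factor PU.1 together with partners such as C/EBP and AP-1 proteins, and inbred strains differ in the DNA letters these factors bind. NOD is an inbred strain that develops autoimmune diabetes and carries its own haplotype of the major histocompatibility complex (MHC), and C57 is the strain of the reference genome.

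The 3 regions with the largest difference in each direction lay in introns or between genes. They are shown by their central 200 bases, on the plus strand of the mm10 reference from 5′ to 3′. The letters are thus those of C57 and not of NOD. Capitals mark exact matches, on either strand, to the PU.1 letters GGAAGT, the C/EBP letters TTGCNNAA and the AP-1 letters TGANTCA. The first 3 had the higher H3K27ac in NOD.

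Ryr2, chr13:11895725-11895924: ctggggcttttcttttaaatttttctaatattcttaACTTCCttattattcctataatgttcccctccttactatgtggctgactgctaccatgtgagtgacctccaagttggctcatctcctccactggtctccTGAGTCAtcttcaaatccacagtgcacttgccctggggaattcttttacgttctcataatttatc
Tbx5, chr5:119887466-119887665: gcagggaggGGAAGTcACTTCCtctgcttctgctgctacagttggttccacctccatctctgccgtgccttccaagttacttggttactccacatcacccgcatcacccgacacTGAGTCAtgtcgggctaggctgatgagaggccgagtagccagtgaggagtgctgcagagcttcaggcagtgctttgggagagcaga
Tbc1d30, chr10:121297497-121297696: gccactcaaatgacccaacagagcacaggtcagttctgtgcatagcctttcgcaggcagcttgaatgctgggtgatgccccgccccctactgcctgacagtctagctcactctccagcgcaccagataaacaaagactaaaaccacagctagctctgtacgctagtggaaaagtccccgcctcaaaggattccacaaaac

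The other 3 had the higher H3K27ac in C57.

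Tmem260, chr14:48422058-48422257: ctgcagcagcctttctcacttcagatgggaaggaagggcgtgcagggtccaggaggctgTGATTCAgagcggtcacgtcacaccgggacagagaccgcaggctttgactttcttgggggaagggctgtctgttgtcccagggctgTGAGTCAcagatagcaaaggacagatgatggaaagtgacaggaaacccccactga
Npr3, chr15:11716557-11716756: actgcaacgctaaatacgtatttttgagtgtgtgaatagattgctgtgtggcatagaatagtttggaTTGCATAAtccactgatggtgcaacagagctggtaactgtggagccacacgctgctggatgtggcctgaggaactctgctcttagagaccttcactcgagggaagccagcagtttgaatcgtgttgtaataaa
Stk24, chr14:121437217-121437416: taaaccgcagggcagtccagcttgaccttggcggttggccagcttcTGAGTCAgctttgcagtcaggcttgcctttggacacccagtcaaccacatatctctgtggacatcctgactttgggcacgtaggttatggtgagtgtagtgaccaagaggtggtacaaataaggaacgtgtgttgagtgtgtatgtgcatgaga

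Each name is that of the nearest gene start in the GENCODE vM21 annotation and says where the region is, not which gene it acts on. The Tbx5 region held 2 PU.1 matches that face each other and an AP-1 match, whereas the Tbc1d30 region held no match to any of the 3 motifs.

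The libraries held between 12030820 and 14739930 tags, so that 1 normalized tag, the deposited unit of tags per 10000000 tags of a library, stood for 1.20 to 1.47 reads. Between 59.6% and 65.4% of the tags lay in the regions of a strain's table. The macrophage label was checked at the promoters of 18 identity genes, of which 16 had a matched promoter region, and all 16 held at least 16 normalized tags. At the promoter of Tyrobp, the adaptor of activating myeloid receptors, C57 libraries held 1042 and 933 normalized tags and NOD libraries 953 and 1003. At that of Csf1r, the receptor for macrophage colony-stimulating factor, the values were 681 and 651 in C57 and 487 and 974 in NOD. Of the markers of other cells, 3 of 8 for T cells, 3 of 7 for B cells, 2 of 9 for neutrophils, 1 of 6 for dendritic cells, 3 of 5 for mast cells and basophils, 2 of 5 for stromal cells and 3 of 5 for erythroid cells had no matched region, among them Cd3e, Cd79a, Pax5, Ly6g, Cpa3, Col1a2, Col3a1 and Gata1. The B cell, stromal and erythroid lists had no matched promoter region. The T cell, dendritic and mast lists had 1 each, with 15.6 and 17.1 normalized tags in C57 and 31.6 and 14.3 in NOD for the T cell one and at most 2.49 in any library for the other 2. Summed over all regions of a list, levels ran from 26.2 for the mast list to 1267 for the stromal list. The strains did not overlap in the sums of the neutrophil list (245 and 223 in C57, 652 and 375 in NOD), the B cell list (374 and 354 against 175 and 207) and the stromal list (1142 and 1149 against 1264 and 1267), and overlapped in the other 4. The 2 matched neutrophil promoters summed to 86.2 and 21.4 in C57 and 414 and 127 in NOD. Most of this was S100a8, a calcium-binding protein that monocytes express as well, with 55.6 and 19.3 in C57 and 353 and 124 in NOD (log2 difference 2.63 ± 0.60, SE; limma adjusted p = 0.18). The part of these markers in the differences below was not tested.

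Most regions carried similar H3K27ac in the 2 strains. Among the 36011 matched regions with at least 16 normalized tags in either strain's mean, the floor the study uses for this mark, 89.6% lay within 2-fold and the median log2 ratio of NOD over C57 was 0.02. The 5th and 95th percentiles of that ratio were -0.84 and 1.17. The median absolute gap between the 2 libraries of a strain was 0.53 on the log2 scale in C57 and 0.58 in NOD, and that between the strain means, each over 2 libraries, was 0.32.

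A difference was called where limma, fitted over all matched regions and the 8 basal and 24 h libraries on log2(normalized tags + 1), gave a Benjamini-Hochberg adjusted p under 0.05. H3K27ac was higher in NOD at 48 regions (0.095% of the 50521 tested) and higher in C57 at 40 (0.0792%). In all, 3125 regions had an unadjusted p under 0.05. The 48 regions made up 44 places at least 50 kb apart, with 43 nearest genes, and the 40 made up 33 places. They were large differences. In NOD-higher regions the log2 difference ran from 1.92 to 7.59 with a median of 3.78, and the median level was 178 normalized tags in NOD and 12.8 in C57. In C57-higher regions it ran from -2.41 to -6.07 with a median of -3.40, at a median of 126 in C57 and 9.965 in NOD. At all 88 regions the 2 libraries of one strain lay above both of the other, as they did at 15551 of all matched regions (30.8%).

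**Figure D1:**
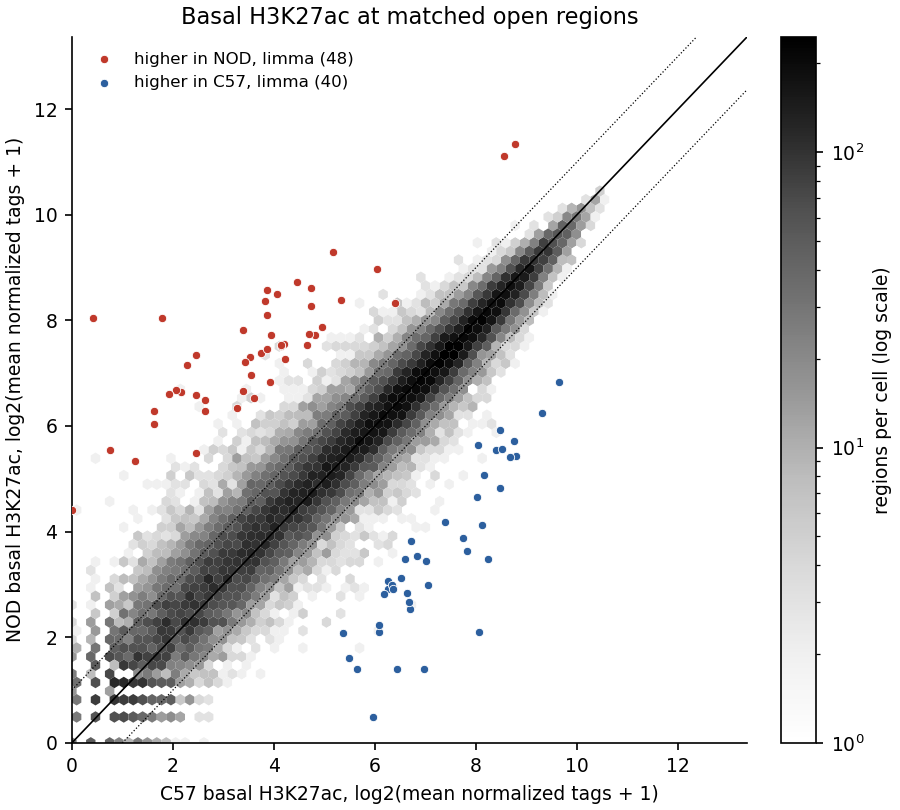
Each matched region is placed by its mean basal H3K27ac in C57 (x axis) and NOD (y axis), both as log2(mean normalized tags + 1), with the number of regions in grey on a log scale. The 48 regions called higher in NOD are red and the 40 called higher in C57 blue, the solid line marks equal levels and the dotted lines 2-fold. The red points lie above the upper dotted line and the blue points below the lower one.

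The number of calls depended on every library. Without C57 replicate 1 it was 10, without C57 replicate 2 it was 8, without NOD replicate 1 it was 20 and without NOD replicate 2 it was 11. The 4 basal libraries fitted alone, which leaves 2 residual degrees of freedom, gave no limma call, with 2500 regions at an unadjusted p under 0.05, and edgeR called 74 regions and DESeq2 557 on the recovered reads of the full design. All 88 regions kept their direction in each of these fits in which they were tested. A limma fit with the replicate number as a block called 1810 regions, though no label says that a number marks a batch. Its calls per gene list are given further below.

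The largest difference in the comparison was at a NOD-higher region within the gene of a muscle calcium channel. At chr13:11895324-11896324, in intron 4 of Ryr2, the ryanodine receptor through which calcium leaves the sarcoplasmic reticulum, the 2 C57 libraries held 0.68 and 0 normalized tags and the NOD libraries 352 and 177. The log2 difference was 7.59 ± 0.61 (SE; limma adjusted p = 0.0051). H3K27ac here was close to absent in C57 and strong in NOD, although the C57 table also holds the region as open chromatin. The PU.1 and AP-1 matches printed above, in the letters of C57, lie in it. An intergenic region 52.9 kb from the start of Tbx5, a T-box factor of heart and forelimb, chr5:119887065-119888065, had 2.71 and 2.14 in C57 and 332 and 197 in NOD (6.23 ± 0.55, adjusted p = 0.0051). The third, in intron 5 of Tbc1d30, which encodes a Rab GTPase-activating protein, chr10:121297096-121298096, had 4.75 and 4.28 in C57 and 115 and 209.6 in NOD (4.82 ± 0.48, adjusted p = 0.0075). In each of the 3 the strains were far apart and replicates of 1 strain lay within 2-fold of each other or at a level near 0.

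Promoters of 2 named genes stood among the 12 largest NOD differences. Hal encodes histidine ammonia-lyase, the first enzyme of histidine breakdown, and its promoter region at chr10:93488095-93489095 held 10.9 and 16.4 normalized tags in C57 and 513 and 251 in NOD (4.65 ± 0.59, adjusted p = 0.016). Cxcl14 encodes a chemokine, and its promoter region at chr13:56296066-56297066 held 2.71 and 1.43 in C57 and 93.1 and 61.1 in NOD (4.67 ± 0.55, adjusted p = 0.0145). The strains did not overlap at either promoter. The region called near a macrophage identity gene lay 21.9 kb from the start of Lgals3, which encodes galectin-3, at chr14:47395360-47396360, where the annotation places it in an exon of another gene. It had 7.46 and 11.4 in C57 and 212 and 239.7 in NOD (4.47 ± 0.56, adjusted p = 0.0146). The Lgals3 promoter itself held 1225 and 847 in C57 and 1001 and 684 in NOD, which overlap.

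The other 6 regions named for NOD lay in introns or between genes. A region 49.1 kb from Fam20c, a kinase of secreted proteins, chr5:138704885-138705885, held 17.6 and 8.56 in C57 and 279 and 379 in NOD. In intron 1 of Ica1, which encodes an islet cell autoantigen, chr6:8771178-8772178, C57 had 3.39 and 4.28 and NOD 214 and 68.3, a spread of over 3-fold within NOD. The 4 regions near Mdm1, Ywhaq, Pla2g4e and Tgfb2 had log2 differences between 4.46 and 4.75, with no C57 library above 4.99 and no NOD library below 29.9. Ywhaq encodes a 14-3-3 adaptor, Pla2g4e a cytosolic phospholipase, and Tgfb2 a transforming growth factor whose start lay 261 kb away.

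Regions with H3K27ac in C57 that was weak in NOD formed a set of like size. The largest lay 24.0 kb from Tmem260, which encodes a membrane protein, at chr14:48421657-48422657, with 282 and 247 normalized tags in C57 and 4.99 and 1.59 in NOD (-6.07 ± 0.56, limma adjusted p = 0.0052). Between genes, 189 kb from Npr3, the clearance receptor for natriuretic peptides, chr15:11716156-11717156 held 122 and 127 in C57 and 1.66 and 1.59 in NOD (-5.58 ± 0.48, adjusted p = 0.0051). At chr14:121436816-121437816, 58.0 kb from the kinase gene Stk24, C57 had 63.8 and 59.2 and NOD 0 and 0.79 (-5.54 ± 0.54, adjusted p = 0.0071). Replicates of each strain were close at these 3 regions, and the lower strain was at 0 to 6 reads per library.

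Of the other 9 regions named for C57, 2 lay in introns of the nearest gene. One was in intron 1 of Gas2, a protein that links actin and microtubules, 0.40 kb from its start (chr7:51878954-51879954, 42.1 and 55.6 in C57 and 1.66 and 1.59 in NOD). The other was in intron 19 of Iqgap3, a cytoskeletal scaffold of dividing cells (chr3:88102449-88103449, 319.5 and 231 in C57 and 24.9 and 7.94 in NOD). Near Dlx2, a homeobox gene, 3 regions were called within 5 kb of each other, and the one with the largest difference, chr2:71594194-71595194, held 267 and 333 in C57 and 9.14 and 11.1 in NOD (-4.76 ± 0.50, adjusted p = 0.0095). Groups did not overlap in any of them. Intergenic regions near Bmf, a BH3-only promoter of apoptosis, Trim17, a ubiquitin ligase, Sfpq, a splicing factor, Supt20, a subunit of the SAGA complex, Rpp14, a subunit of RNase P, and the orphan nuclear receptor gene Nr4a2 had log2 differences between -3.99 and -5.00. The region named for Nr4a2 lay 808 kb from it.

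**Figure D2:**
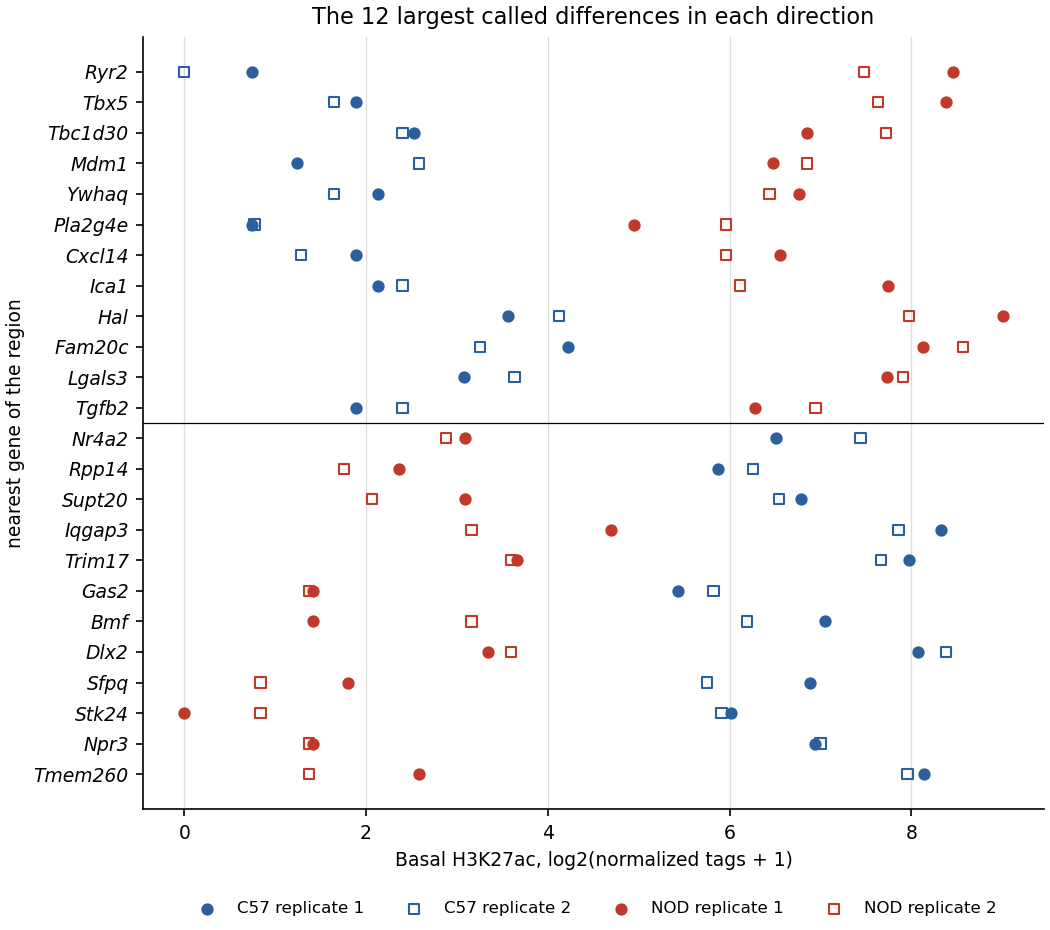
Basal H3K27ac of each library, as log2(normalized tags + 1), at the 12 regions with the largest called difference in each direction, 1 row per region, named by the nearest gene. Filled circles are replicate 1 and open squares replicate 2, C57 in blue and NOD in red; in the upper 12 rows both NOD libraries lie above both C57 libraries and in the lower 12 rows below them.

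Called regions were mostly away from promoters. Of the 10606 matched regions that the authors' annotation places at promoters, 8 were called higher in NOD and 2 higher in C57, against 19 and 17 of 20500 in introns and 18 and 21 of 16324 between genes. Calls higher in NOD were 0.075%, 0.093% and 0.11% of these classes in turn, beside 0.095% of all regions. Calls higher in C57 were 0.019%, 0.083% and 0.13%, beside 0.0792% of all regions. By size alone, with a rule of at least 2-fold between means of normalized tags + 1 and at least 16 tags in the higher mean, 2.11% of promoters, 5.53% of introns and 6.39% of intergenic regions were past the rule on the NOD side. On the C57 side the shares were 2.32%, 2.16% and 2.89%. The median log2 ratio was -0.14 at promoters, 0.10 in introns and 0.11 between genes. Median distance from the nearest gene start was 21.4 kb for NOD-higher and 25.2 kb for C57-higher regions, and 10.3 kb for all matched regions. Calls were found on all chromosomes but 16, 19, X and M.

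Neighbouring regions, measured in the same libraries and so not independent, mostly leaned the same way. Within 20 kb of a C57-higher region, leaving out the nearest 1 kb, 59 of 66 regions with at least 16 tags had a ratio below 0 (89.4%, against 48.4% of all such regions), and 22 were past the fold rule on the C57 side and 1 on the NOD side. Around NOD-higher regions 40 of 64 had a ratio above 0 (62.5%, against 51.5%), with 26 and 6 past the rule.

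The called differences were also present after IL-4, in libraries whose levels do not enter the basal difference. After 24 h of IL-4, H3K27ac lay on the same side of 0 at 48 of 48 NOD-higher regions (median log2 difference 3.004) and at 40 of 40 C57-higher regions (median -2.38). By limma 10 and 4 of them were called at 24 h, where 0.0238% of all regions were called higher in NOD and 0.00792% higher in C57 (0.0317% in all). The 24 h libraries share the estimate of spread with the basal fit but not its values. The basal calls thus depended on the spread of the 24 h libraries, and the basal libraries fitted alone gave no limma call. The difference between strains did not pass the test for a change with IL-4 at any region (0 of 50521 by limma, 513 at an unadjusted p under 0.05). At the Ryr2 region the 24 h values were 5.94 and 3.94 in C57 and 399 and 158 in NOD.

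Other marks of regulatory activity moved with H3K27ac at these regions. For H3K4me2, 45 of 48 NOD-higher and 40 of 40 C57-higher regions had the same sign, with medians of 1.25 and -1.66 beside a median of -0.25 over all matched regions. After scaling libraries by median ratios, which puts the median of all regions at 0.00, the same sign was present at 48 of 48 and 40 of 40. Calls in the same direction numbered 18 and 23, where 0.23% and 0.37% of all regions were called. For Pol II, 48 of 48 and 40 of 40 had the same sign, at medians of 2.19 and -2.24, and 19 regions in each direction were called, beside 0.105% and 0.111% of all regions (0.216% in all). H3K4me3 had the same sign at 47 of 48 and 37 of 40 regions (medians 1.83 and -1.54), with 21 and 18 called beside 0.344% and 0.435%. No called region was called in the opposite direction in any of these 4 readouts. Among the 3 C57-higher regions with H3K4me3 on the other side were those near Supt20 and Nr4a2, at 0.78 and 0.57.

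**Figure D3:**
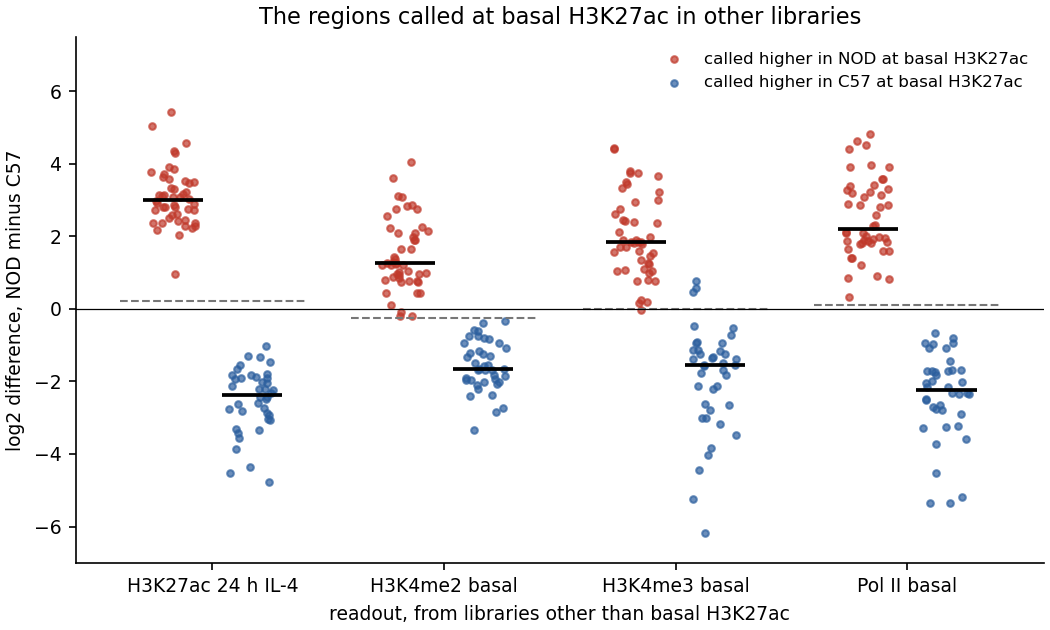
Log2 difference, NOD minus C57, of each region called at basal H3K27ac in 4 readouts from other libraries, with regions called higher in NOD in red and higher in C57 in blue. Black bars are medians of the points and grey dashed lines the median of all matched regions; the red and blue medians lie on opposite sides of 0 in each readout.

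Binding of macrophage factors was read from the basal peak lists of each strain, counting a list as holding a region where a peak shares 1 bp or more with its window. A PU.1 peak was present in at least one list at all 48 NOD-higher regions, in the NOD list only at 19 (39.6%) and in the C57 list only at 2. At C57-higher regions 10 of 40 (25%) had a PU.1 peak in the C57 list only and none in the NOD list only. Over all matched regions 5.25% had one in the NOD list only and 5.01% in the C57 list only. Both lists held a peak at 27 NOD-higher (56.25%) and 28 C57-higher regions (70%), beside 70.8% of all matched regions.

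The other factors were more often in neither list or in one list only. C/EBPβ, labelled CEBPb, had a peak in the NOD list only at 21 NOD-higher regions and in the C57 list only at none, and at 13 C57-higher regions in the C57 list only and in the NOD list only at none. Over all matched regions 5.67% had a CEBPb peak in the NOD list only and 4.32% in the C57 list only. For STAT6, the factor activated by IL-4 signalling, the counts were 20 and 1 at NOD-higher regions and 1 and 22 at C57-higher regions, for the NOD and the C57 list in turn, beside 4.22% and 19.3% of all matched regions. PPARγ, a nuclear receptor of lipid metabolism, had 16 and 0 at NOD-higher and 0 and 6 at C57-higher regions, beside 9.59% and 2.81% of all. The lists of a factor are not equal in size, with more one-list regions in C57 for STAT6 and in NOD for PPARγ and EGR2. Over all matched regions 20.6% had an EGR2 peak in the NOD list only and 0.639% in the C57 list only, and the counts were 20 and 0 at NOD-higher and 7 and 2 at C57-higher regions.

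**Figure D4:**
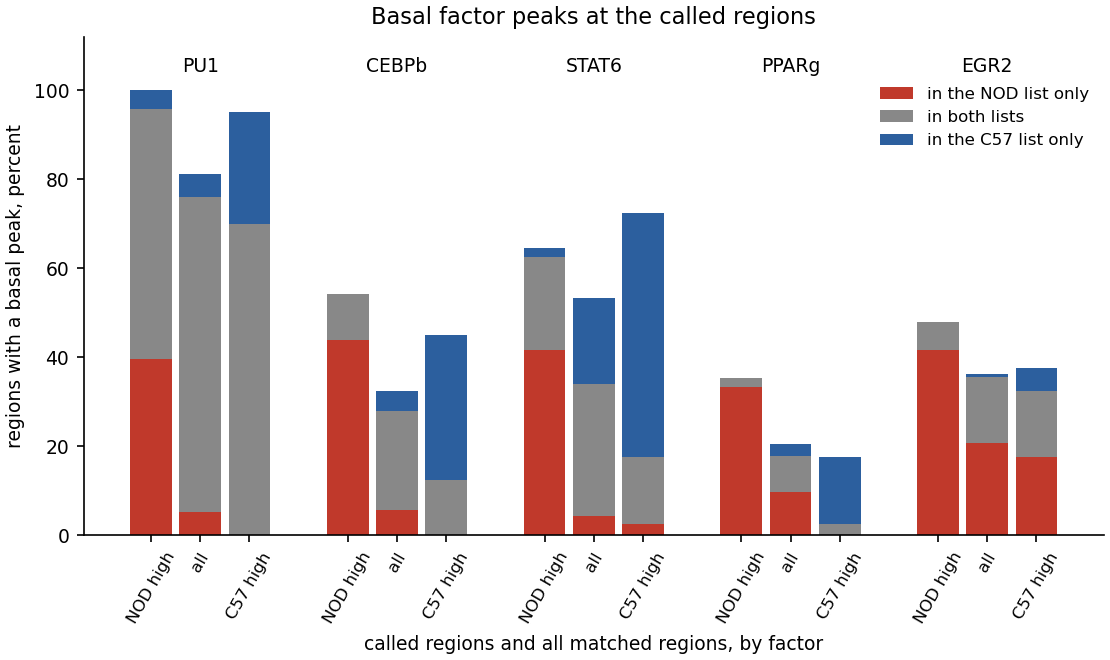
Percent of regions with a basal peak of 5 factors in the NOD list only (red), in both lists (grey) and in the C57 list only (blue), for the 48 regions called higher in NOD, all 50521 matched regions and the 40 called higher in C57. For PU1, CEBPb, STAT6 and PPARg the red share is largest in the NOD bars and the blue share in the C57 bars; for EGR2 red exceeds blue in all 3 bars.

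Motif letters were counted at the centres of the same regions, in a narrower window than the peaks. In the central 200 bases of the reference, the PU.1 letters were found in 18 of 48 NOD-higher (37.5%), 13 of 40 C57-higher (32.5%) and 36.6% of all regions. C/EBP letters were found in 14.6%, 10.0% and 11.6%, and AP-1 letters in 22.9%, 30.0% and 17.2%. The window holds C57 letters only, and a lack of a match says nothing of the factor.

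Among gene groups, the genes of MHC class II, which present peptides to CD4+ T cells, had the largest share of regions past a 2-fold rule on the C57 side. Of the 49 regions nearest to 12 class II genes, 17 were past the fold rule, all on the C57 side (34.7%, beside 7.41% of all matched regions in either direction), and 1 was called. Among the 36 regions with at least 16 tags the median log2 ratio was -0.94, and 34 lay below 0, 1 at 0 and 1 above it, where all such regions had a median of 0.02. NOD carries its own MHC haplotype, and how well its reads aligned at the MHC genes among these was not tested. The called region lay 9.62 kb from H2-Oa, a chain of the H2-O dimer that restrains peptide loading, at chr17:34101464-34102464, and held 208 and 126 normalized tags in C57 and 16.6 and 17.5 in NOD (-3.18 ± 0.48, limma adjusted p = 0.034).

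Classical class II promoters had low H3K27ac in both NOD libraries and in C57 replicate 2, and more in C57 replicate 1. The promoter of H2-Ab1 held 82.8 and 24.96 in C57 and 8.31 and 21.4 in NOD (-1.69 ± 0.69, adjusted p = 0.72). That of H2-Eb1 held 80.05 and 24.96 against 5.82 and 13.5 (-2.21 ± 0.76, adjusted p = 0.54), and that of Cd74, the invariant chain, 149 and 43.5 against 26.6 and 20.6 (-1.74 ± 0.60, adjusted p = 0.54). For Ciita, the master activator of class II transcription, the values were 96.3 and 75.6 in C57 and 24.9 and 51.6 in NOD (-1.22 ± 0.49, adjusted p = 0.71). The strains did not overlap at these 4 promoters, but none was called. Without C57 replicate 1 the class II median was -0.73 and 8 regions were past the rule, and over the ways of leaving out 1 library it ran from -0.73 to -1.26. In other libraries the same 36 regions had a median of -0.74 for H3K27ac at 24 h (all regions 0.26), -0.40 for H3K4me2 (all -0.26), -0.36 for H3K4me3 (all -0.05) and -1.01 for Pol II (all 0.12), the last with 35 of 36 below 0.

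Interferon-stimulated genes gave a basal H3K27ac pattern that rested on 1 library. None of their regions was called by limma, edgeR or DESeq2, 3 had an unadjusted limma p under 0.05 (6.19% of all matched regions did), 15 were past the fold rule on the C57 side and 2 on the NOD side (16.3% in all, beside 7.41% of all matched regions), and the median ratio of 82 regions with at least 16 tags was -0.50. Without C57 replicate 1 it was 0.27, with no region past the rule on the C57 side and 5 on the NOD side. At the promoter of Ifih1, the double-stranded RNA sensor MDA5, C57 held 563 and 155 and NOD 150.45 and 69.1. At that of Zbp1, a sensor of Z-form nucleic acid, C57 held 389 and 45.6 and NOD 106 and 41.3, which overlap. Summed over all promoters of the list, C57 replicate 1 held 15691 normalized tags, and the other 3 libraries 6069.5 to 8578. In other libraries the same 82 regions had a median of -0.16 for H3K27ac at 24 h (all regions 0.26) and -0.33 for H3K4me2 (all -0.26). The medians were -0.19 for H3K4me3 (all -0.05) and 0.03 for Pol II (all 0.12).

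Macrophage identity genes were centred near equal levels. Their 191 regions with at least 16 tags had a median ratio of 0.05, with 9 of 204 past the fold rule on the NOD side, 6 on the C57 side (7.35% in all, beside 7.41% of all regions), and the Lgals3 region the only call. The regions given next, of 3 other identity genes, did not pass the test. Upstream of Csf1r, 14.3 kb from its start, C57 held 223 and 223 and NOD 54.0 and 59.5 (-1.96 ± 0.37, adjusted p = 0.089). A region 9.37 kb from Trem2, a lipid-sensing receptor, held 10.9 and 23.5 in C57 and 102 and 118 in NOD (2.70 ± 0.47, adjusted p = 0.064), and one 17.8 kb from Mpeg1, which encodes perforin-2, held 50.9 and 83.4 in C57 and 9.97 and 7.94 in NOD (-2.74 ± 0.50, adjusted p = 0.077). The groups did not overlap at these regions, and none reached the threshold.

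Scavenger receptor genes had a median ratio of 0.40 over 50 regions, with 12 of 64 regions past the fold rule on the NOD side and 3 on the C57 side, beside 4.99% and 2.42% of all regions. Leaving out 1 library, the median ran from 0.12 to 0.81, with 9 to 20 regions past the rule on the NOD side and 2 to 8 on the C57 side. The called region was the promoter of Colec12, a scavenger receptor with a collectin domain, chr18:9707126-9708126, with 19.7 and 15.7 in C57 and 158 and 147 in NOD (3.04 ± 0.43, limma adjusted p = 0.023). An intronic Colec12 region had 36.0 and 66.3 in C57 and 233 and 438 in NOD (adjusted p = 0.084). At the 4 regions past the rule near Marco, the receptor with collagenous structure, replicate 1 held over 2 times replicate 2 in both strains, and only the region 0.23 kb from the start was without overlap (20.4 and 5.70 against 73.2 and 26.2).

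Genes induced by IL-4 had 39 regions of 251 past the fold rule on the NOD side, 5 on the C57 side and a median of 0.28, beside 4.99% and 2.42% of all regions. Without NOD replicate 1 the counts were 30 and 19, and over the ways of leaving out 1 library they ran from 30 to 61 and from 11 to 21, with medians from 0.16 to 0.58. Neither limma nor edgeR called any of them and DESeq2 called 3, while 32 had an unadjusted limma p under 0.05, 28 of them higher in NOD, beside 6.19% of all regions. The 39 were nearest to 12 genes of the list, and many lay around Myc, the growth regulator, 13 of them in chr15:61983032-62152821. At the Myc promoter region 0.89 kb from the start, C57 held 23.8 and 57.04 and NOD 223 and 82.6 (1.85 ± 0.63, adjusted p = 0.53). The lists of inflammatory NF-kB targets (median 0.00), Toll-like receptors (0.15), lysosomal genes (-0.11), Fc gamma receptors (-0.38) and C-type lectins (0.18) had no limma or edgeR call either. At an unadjusted limma p under 0.05 stood 10 of 223, 5 of 70, 16 of 181, 5 of 33 and 0 of 33 of their regions in turn, and DESeq2 called 1, 0, 3, 1 and 0. Within the list of genes at mouse diabetes loci, 2 of 113 regions were called, both nearest to Icos, a T cell costimulator. They held 2.04 and 0.71 in C57 and 42.4 and 36.5 in NOD at 209.6 kb from its start (4.15 ± 0.56, adjusted p = 0.019), and 14.9 and 9.98 against 130.5 and 202 at 2.97 kb (3.63 ± 0.53, adjusted p = 0.027). In the whole of the 28 lists, 5 of 2214 regions were called, beside 0.174% of all matched regions.

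**Figure D5:**
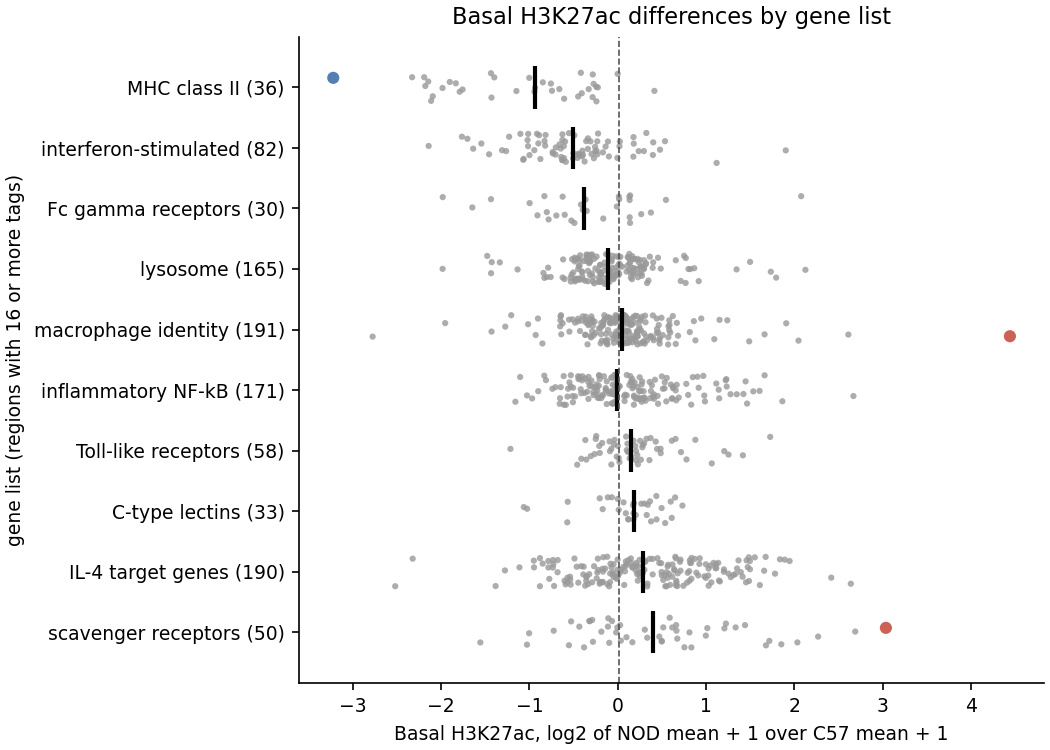
Log2 ratio of NOD over C57 mean basal H3K27ac, each mean + 1, for matched regions with at least 16 normalized tags, in 10 gene lists with their number of regions. Each point is a region, the large coloured points are called by limma (red higher in NOD, blue higher in C57), black bars are medians and the dashed line is the median of all such regions; the class II median is -0.94 and the scavenger receptor median 0.40.

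Genes that the study uses as examples of IL-4 enhancers were not called at their strongest basal region. Arg1, the arginase of alternatively activated macrophages, held 104.5 and 134 in C57 and 120 and 105 in NOD, which overlap. Egr2, an IL-4-induced zinc finger factor, held 145 and 105 at its promoter in C57 and 253 and 189.7 in NOD (0.83 ± 0.38, limma adjusted p = 0.82). At the Slc7a2 promoter, of an arginine transporter, C57 had 9.50 and 6.42 and NOD 74.0 and 19.8 (2.16 ± 0.70, adjusted p = 0.48). The region 32.3 kb from Btbd11 had 100.4 and 212 in C57 and 23.3 and 16.7 in NOD (-2.83 ± 0.61, adjusted p = 0.14). Strains did not overlap at the last 3. At Cd36, Mmp12, Msx3, Ripk2 and Treml2 the log2 difference lay between -0.57 and 0.52. Near Treml2 the C57 table also held 5 regions in chr17:48285248-48300955 without a NOD partner, 3 of them with at least 16 tags. No NOD region is matched to those regions, so they were not compared, though the stretch reaches into the matched window near Treml2.

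By size alone, 2523 regions (4.99%) were past the fold rule on the NOD side and 1223 (2.42%) on the C57 side, and at 1958 and 1074 of them the libraries did not overlap, beside 30.8% of all regions. The split depended on the scaling and on single libraries. With median-ratio scaling it was 2208 and 1354, without NOD replicate 1 it turned to 2391 and 2958, without NOD replicate 2 it was 4431 and 2683, without C57 replicate 1 it was 3823 and 1563 and without C57 replicate 2 it was 4417 and 1976.

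Regions past the fold rule clustered along chromosomes, and 50.3% of those on the NOD side and 46.7% of those on the C57 side had another of the same side within 50 kb. Runs of at least 5 numbered 39 on the NOD side and 20 on the C57 side. The longest, chr11:81996741-82175475, covered the chemokine genes Ccl2, Ccl12, Ccl11, Ccl8 and Ccl1, with 19 of 22 matched regions. Its summed H3K27ac was 853 and 986 normalized tags in C57 and 3597 and 1421 in NOD, so that the NOD libraries themselves differed by over 2-fold. Downstream of Myc, 13 of 19 regions in chr15:61983032-62152821 summed to 493 and 1015 in C57 and 2429.6 and 1592 in NOD. Around Ets2, an ETS factor, 12 of 14 regions summed to 371 and 601 in C57 and 3252 and 925 in NOD. None of these 3 runs held a limma call, and NOD replicate 1 was the higher NOD library in each. A run at Clmp and Hspa8, chr9:40709076-40757080, held 3 calls among 8 of 8 regions, with 629.6 and 449 in C57 and 2143 and 3671 in NOD.

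On the C57 side the longest run lay in the MHC, chr17:33978418-34153642, from H2-K1 to H2-DMb1. Its 12 regions, of 29 matched there, summed to 1940.3 and 914 in C57 and 625 and 367 in NOD. A further 9 of 14 regions over H2-Ab1, H2-Aa and H2-Eb1, chr17:34257261-34336806, summed to 716 and 215 in C57 and 117 and 135 in NOD. How well NOD reads aligned in the MHC was not tested. At Trim11 and Trim17, chr11:58927959-58982622, 8 of 11 regions with 1 call summed to 1109.9 and 849 against 266 and 206. Sums of such runs cover only regions that the fold rule picked in the same 4 libraries, so that their direction is a description.

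Basal levels in the other 3 strains of the series are given beside these. Of the 48 NOD-higher regions, 40 had a partner in the table of BALB/cJ (BALB), and at 28 of them the BALB mean lay nearer to the NOD level on the log2 scale. For PWK/PhJ (PWK) this held at 27 of 42, and for SPRET/EiJ (SPRET) at 26 of 35. Of C57-higher regions, BALB lay nearer to C57 at 20 of 33, PWK at 24 of 35 and SPRET at 17 of 26. Single regions varied. At the Ryr2 region PWK held 263 and 193 and SPRET 1.71 and 1.98, and at the Npr3 region BALB held 229 and 159. Near Sfpq and Bmf, where C57 held at least 52.8 normalized tags, no library of the other 4 strains held over 7.94.

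Regions found in one table only carried less H3K27ac in their own strain than matched ones. The median of the 17221 C57 regions was 4.50 normalized tags (40.9 for matched) and that of the 18411 NOD regions 9.26 (45.2 for matched), and 29.6% and 38.3% held at least 16. The other strain's table has no matched region at such a place, so it was not compared. A window of the other table still shared bases with 3957 of the C57 regions and 2449 of the NOD regions. Of the NOD regions, 5245 were held by the C57 table of the IL-4 time course, where medians were 11.01 in C57 and 13.5 in NOD, with 299 past the fold rule on the NOD side and 121 on the C57 side. At the distance limit, the 76 matched regions in the last 50 bp below it had medians of 40.0 in C57 and 35.0 in NOD. Just outside it, the 355 C57 and 211 NOD regions whose nearest centre lay in the next 50 bp had medians of 69.3 and 68.9.

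A few strong elements stood together in one table only; the ones given here were chosen after their values were seen. The C57 table held 7 regions in chr11:71163841-71285852 over the inflammasome genes Nlrp1a, Nlrp1b and Nlrp1c-ps where the NOD table had a gap of 832 kb. The Nlrp1b promoter held 381 and 467 normalized tags in the C57 libraries and an element 20.8 kb upstream 826 and 850. Of the NOD table's 32 regions of the Ifi200 cluster, a family of DNA-sensing proteins, 14 had no C57 partner, while all 18 C57 regions there had one, where 26.7% of the whole NOD table and 25.4% of the C57 table had no partner. They included an intronic region of Ifi207, 1.00 kb from its start, with 185 and 298, one of Mndal with 186 and 268, and 2 in introns of Ifi202b with 75.6 and 114, and 51.5 and 88.1. Members of both clusters resemble each other in sequence, so values of single members are uncertain. At the 3′ part of Lpp, which encodes a protein of cell adhesion sites, the NOD table had 2 regions of 475 and 556, and 489.6 and 485, without a C57 partner within 7.94 kb.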

How the data were processed

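ChIP-seq of BMDMs was analysed from tables that count tags in 1000 bp around centres of reproducible ATAC-seq peaks, 1 table per strain. The authors aligned reads with bowtie2 to a genome of each strain, made by placing known variants into mm10, shifted positions to mm10 and counted tags with HOMER. The deposited signal values are tags scaled by the authors to 10000000 per library, replicates apart, so differences in the share of tags inside regions remain. Whole reads were recovered for 100% of 2390010 values within 0.1 read. C57 values were identical in the strain and time-course tables at 16367 shared regions. Deposited peak lists with a score per peak stand for groups, and only their positions were used.

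Differences were tested with limma 3.58.1 (lmFit, eBayes with trend) in R 4.3.3 on log2(normalized tags + 1), pseudocount 1 and no filter, over the 8 H3K27ac libraries (8 each for H3K4me2 and H3K4me3, 11 for Pol II), adjusted by Benjamini-Hochberg. Fold changes on this scale understate those of low regions. edgeR 4.0.16 and DESeq2 1.42.0 were alternatives on recovered reads, and the fit was tested on simulated data. Replicates were not duplicates (chi-square per degree of freedom 18.4 and 18.8). The nearest gene was the closest start in GENCODE vM21 (mm10), not the authors' annotation, which gave the region classes. Named regions were the 12 largest called differences in each direction without overlap of libraries, 1 per gene, up to 4 called regions per gene list, and the strongest region of each gene the study uses as an example. Regions past the fold rule that were not called, and regions in one table only, were named after their values were seen. The comparison, the 28 gene lists and the tests were chosen with earlier results of these data known. Sequences came from the mm10 reference. One region that the naming rule selects is not reported here.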

Additional observations from a re-analysis of the deposited data

How the results depend on the processing

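Directions of the 28 called regions named above held in every alternative in which they were tested, but the number of calls did not. Leaving out 1 library gave 8 to 20 limma calls for basal H3K27ac (88 with all), 0 to 1 for H3K27ac at 24 h (16, with 1311 to 2981 regions at an unadjusted p under 0.05), 92 to 322 for H3K4me2 (303), 237 to 406 for H3K4me3 (394) and 18 to 133 for Pol II (109), 5349 to 7114 regions past the fold rule (3746), and none in the gene lists (5). The PU.1 share in the NOD list only ran from 37.5% to 66.7% of NOD-higher regions (39.6%) and that in the C57 list only from 27.3% to 50.0% of C57-higher regions (25%), over 2 to 11 regions. The 4 basal libraries alone gave 0 limma calls, of which 0 in the gene lists, and 2500 regions at an unadjusted p under 0.05. DESeq2 called 557 regions, 37 of them in the lists, and edgeR 3 in the lists. The fold rule gave 5991 regions with no floor and 682 at 4-fold. Causes were not tested beyond the smaller number of libraries in a fit.

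Replicate numbers are shared by the strains in the labels, with no word that a number marks a day or batch. Deviations of same-numbered libraries correlated at 0.52 at basal and 0.46 at 24 h. Pearson's r of basal log2 values was 0.93 and 0.95 between same-numbered libraries of the strains. It was 0.91 and 0.90 between differently numbered ones, 0.93 within C57 and 0.91 within NOD. These values, over 2 pairs, do not establish pairing. With the replicate number as a block, limma called 1810 regions at basal (991 higher in NOD and 819 in C57), 1583 at 24 h, 609 for H3K4me2, 1008 for H3K4me3, 172 for Pol II and 128 in the gene lists, among them 16 regions of IL-4 target genes, 14 of macrophage identity, 11 of scavenger receptor, 7 of MHC class II and 2 of interferon-stimulated genes. At 16 normalized tags, 19.2 to 23.6 reads, counting error limits what can be seen.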

Other observations

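Of 147 regions of genes of cholesterol handling and the liver X receptor, 11 were past the fold rule on the NOD side and 6 on the C57 side (11.6% in all, beside 7.41% of all matched regions). By limma and edgeR none was called and by DESeq2 6, with 14 at an unadjusted limma p under 0.05, beside 6.19% of all regions. The regions given here were chosen after their values were seen. In an intron of Rxra, the nuclear receptor that pairs with the liver X receptor, chr2:27714892-27715892 held 95.7 and 49.9 normalized tags in C57 and 424 and 302 in NOD (log2 difference 2.35 ± 0.43, SE; limma adjusted p = 0.080). At Abcg1, which exports cholesterol to lipoproteins, the promoter region chr17:31057219-31058219 held 306 and 229 in C57 and 111 and 96.8 in NOD (-1.34 ± 0.42, adjusted p = 0.44), whereas in an intron chr17:31075204-31076204 held 63.8 and 61.3 against 303 and 291 (2.23 ± 0.45, adjusted p = 0.11). The promoter and the intron of the same gene thus lay on opposite sides, with no overlap between strains at either and no limma call.

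Lysosomal proteases and inhibitory receptors held further elements of this kind, also picked after their values were seen. In an intron of Lgmn, which encodes the protease legumain, chr12:102426053-102427053 held 58.3 and 50.6 in C57 and 209 and 274 in NOD (2.12 ± 0.44, limma adjusted p = 0.13). Near Ctss, which encodes cathepsin S, the protease that cuts the class II invariant chain, chr3:95523425-95524425 held 345 and 436 in C57 and 116 and 172 in NOD (-1.45 ± 0.40, adjusted p = 0.31). Near Lilrb4a, an inhibitory receptor gene with a close copy beside it, so that its values are uncertain, chr10:51528717-51529717 held 545 and 468 in C57 and 70.7 and 144 in NOD (-2.31 ± 0.42, adjusted p = 0.080). Strains did not overlap at these 3 regions, and none was called.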
